A study of Mus musculus with 8 samples.

Results

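Non-fibrillar collagens were followed in SV-LEC mouse lymphatic endothelial cells exposed to TGFβ1. They were taken as every gene of the count table whose symbol has the form of a collagen chain, apart from the 10 chains of the fibrillar types I, II, III, V, XI and XXVII, which left 34 of the 55471 genes listed. The 34 genes comprised 6 chains of type IV, 6 of type VI, 3 of types VIII and X, 9 fibril-associated chains, both chains of types XV and XVIII, 4 transmembrane chains and 4 others (Col7a1, Col24a1, Col26a1 and Col28a1). Col24a1 is a fibrillar chain by class that the rule kept among the members.

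SV-LEC is a cell line made from mouse mesenteric adventitial tissue and immortalized with SV40, and every sample carried this genotype. Cells were left untreated or were given 10 ng/ml TGFβ1 for 72 h, and poly(A) RNA of 4 samples per group was sequenced. The methods of the study call these 4 samples technical replicates, so errors and p-values cover the spread between libraries of 1 line and not between independent cultures. Library totals were between 18952504 and 26386941 counts, and 3 counts in a library corresponded to 0.113 to 0.162 CPM, counts per 1000000 of the normalized library size.

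Collagens are trimers of chains that wind into a triple helix. Type IV forms the network of basement membranes, the sheets that underlie endothelium and epithelium, while type VI forms beaded filaments around cells. Types VIII and X form short-chain networks, fibril-associated collagens coat the surface of collagen fibrils, types XV and XVIII are proteoglycans of basement membrane zones, and transmembrane collagens sit in the cell surface. Lymphatic capillaries are known for a thin and discontinuous basement membrane.

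The labelled cell type was checked against marker genes. Of 7 lymphatic endothelial markers, Pdpn (342 CPM in untreated cells) and Flt4 (21.6 CPM) were present, while Prox1, Lyve1, Ccl21a, Reln and Mmrn1 lay under 1 CPM and Ccl21a had no count in any library. Flt4 passed the test as higher and Pdpn as lower, and the summed level of the list was between 344.4 and 381.6 CPM in untreated and between 337.4 and 347.9 CPM in TGFβ1 libraries. Of 9 general endothelial markers, 7 lay under 1 CPM, among them Pecam1 and Cdh5, with Tie1 and Erg at 0 in all libraries. Of the 3 that were tested 1 was higher and 1 lower, with sums of 16.9 to 19.1 CPM in untreated and 25.8 to 29.1 CPM in TGFβ1 libraries. The libraries thus lacked most transcripts that define the labelled cell type in both groups. Over 6 fibroblast markers the summed level was between 468.9 and 510.2 CPM in untreated libraries and between 141.1 and 167.4 CPM after TGFβ1, with Pdgfra, Dcn and Fbln1 lower among 4 tested markers and Lum and Dpt under 1 CPM. Over 6 mural cell markers it was between 97.2 and 106 CPM in untreated libraries and between 376.3 and 396.8 CPM after TGFβ1, with all 5 tested markers higher and Rgs5 under 1 CPM. Of 5 leukocyte markers 1 was tested and was higher, with sums of 6.02 to 7.86 and 15.3 to 17.4 CPM. The part of these markers in the collagen results was not tested.

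Of the 34 members, 21 had enough counts to be tested and 13 did not. At an FDR under 0.05 in edgeR's likelihood ratio test, 12 members were higher after TGFβ1 and 6 were lower, and 3 did not pass. This was 57.1% and 28.6% of the members tested, beside 37.6% higher and 38.0% lower among all 13818 genes tested. Col10a1, Col17a1 and Col23a1 passed the filter on low counts through the TGFβ1 libraries alone and therefore had to differ. Among the other 18 members, 9 were higher (50%) and 6 lower (33.3%). This stands beside 36.1% and 38.9% of all genes that did not pass through the TGFβ1 libraries alone. Of these 18, Col4a3 and Col7a1 reached the cutoff of the filter in 4 TGFβ1 libraries and 1 untreated library. They thus also needed the TGFβ1 libraries to pass. Col24a1 reached the cutoff in 4 untreated and 3 TGFβ1 libraries. Of the 10 fibrillar chains, all tested, 7 were higher, among them Col2a1 through the TGFβ1 libraries alone, and 2 lower. All TGFβ1 libraries lay above all untreated ones for 12 of the 21 members and below them for 4, beside 34.7% and 35.1% of all genes tested. The groups of the remaining 5 members overlapped. Separate groups were common here, since 69.8% of all genes tested had no overlap in either direction, and Col10a1, Col17a1 and Col23a1 are among the 12. In RNA of a whole culture, a change in the share of cells that hold a transcript and a change in its level per cell cannot be told apart. A log2 fold change above 1 was called for 11 of the 21 members tested and one below −1 for 2, beside 10.9% and 6.56% of all genes. The 11 include Col10a1, Col17a1 and Col23a1, which had to differ, and Col4a3 and Col7a1, which also needed the TGFβ1 libraries to pass. Log2 fold changes of the tested members were between −1.30 and 5.40 with a median of 1.02, where the median over all genes tested was −0.01 and the median over the 10 fibrillar chains was 0.92. The median of 1.02 includes Col10a1, Col17a1 and Col23a1, which had to differ, and that of 0.92 includes Col2a1. Among the other 18 members the middle values were 0.07 (Col8a1) and 0.27 (Col4a1).

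**Figure D1:**
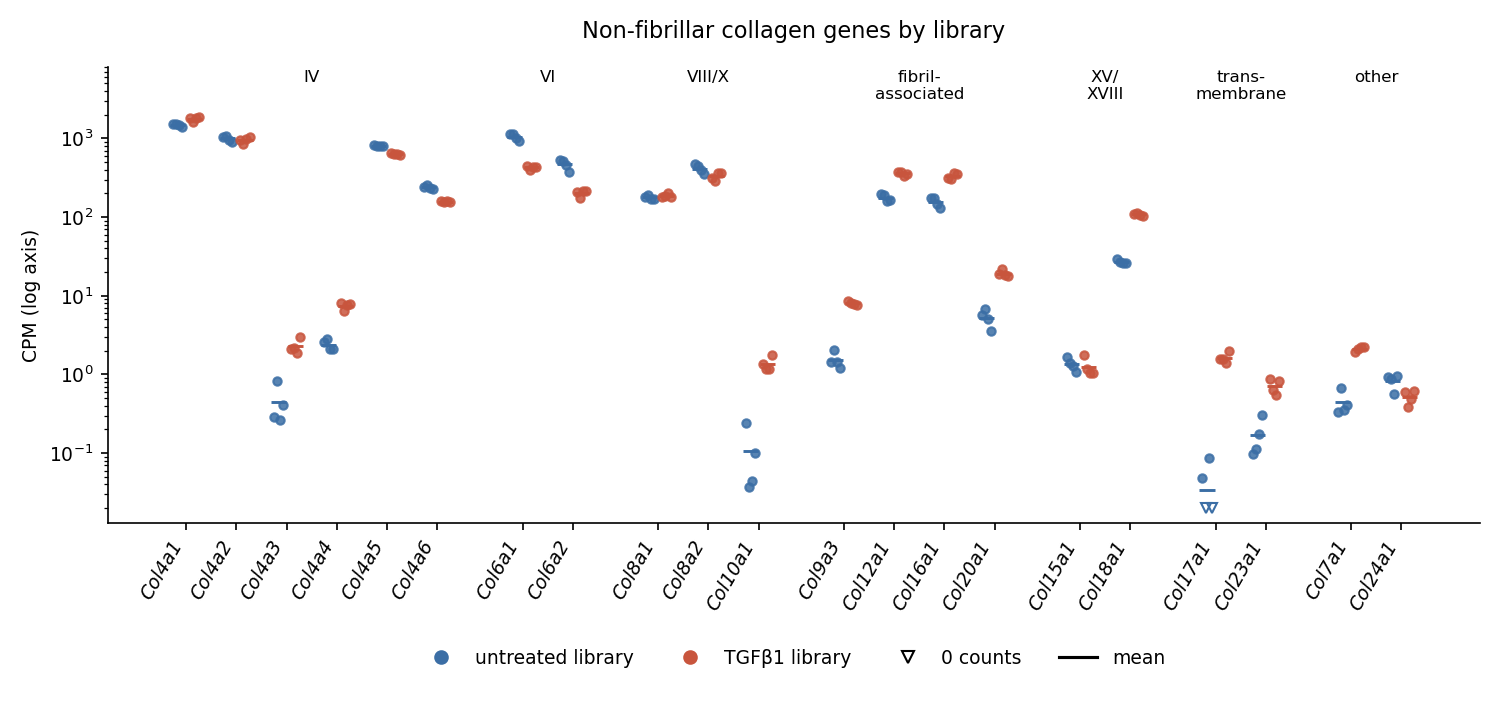
CPM of the 21 tested members in each of the 8 libraries on a log axis, untreated in blue and TGFβ1 in red, with a short line at each group mean and open triangles for libraries without a count. The abundant chains of types IV, VI and VIII differ by less than about 3-fold, while Col17a1 goes from at most 2 counts in a library to 28 or more.

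The ubiquitous chains of type IV collagen, Col4a1 and Col4a2, which join in the α1α1α2 trimer of most basement membranes, moved apart. Col4a1 was measured at 1523, 1539.5, 1480.5 and 1383 CPM in the untreated libraries and at 1824, 1639, 1802 and 1884 CPM in the TGFβ1 libraries. Every TGFβ1 library was above every untreated one, and the log2 fold change was 0.27 ± 0.0515 (SE; edgeR FDR 3.08e-07). Col4a2 was measured at 1057.5, 1076, 959 and 905 CPM in untreated libraries and 956, 853.5, 980.5 and 1032 CPM after TGFβ1. Here the groups overlapped, and the log2 fold change of −0.06 ± 0.066 (SE) did not pass the test (edgeR FDR 0.371).

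Both genes start head to head on chromosome 8 (GRCm38), Col4a1 on the minus strand at 11198423 to 11312826 and Col4a2 on the plus strand at 11312805 to 11449287. Their first exons overlap by 22 bases, printed here in capitals on the plus strand (chr8:11312801-11312830, RefSeq table for GRCm38.p6) because the chains that share this start differed in their response.
Col4a1/Col4a2: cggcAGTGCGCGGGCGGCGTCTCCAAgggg

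The chain ratio was also taken within each library, from counts per kb of exon, so that library size does not enter. The ratio of Col4a2 to Col4a1 was 0.783, 0.788, 0.731 and 0.738 in the untreated libraries and 0.591, 0.587, 0.614 and 0.618 in the TGFβ1 libraries. All 4 TGFβ1 ratios were below the lowest untreated ratio, and the mean went from 0.76 ± 0.0297 (SD, n = 4) to 0.602 ± 0.0155 (SD, n = 4). The exact two-sided permutation test over libraries gave p = 0.0286, the smallest value that 4 against 4 libraries allow, and 0.04 after adjustment over the 7 ratios computed.

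Col4a3 and Col4a4, chains of the α3α4α5 trimer known from the kidney glomerulus, rose from a low level. Col4a3 had 0.289, 0.826, 0.262 and 0.406 CPM in the untreated and 2.11, 2.19, 1.87 and 2.95 CPM in the TGFβ1 libraries, with no overlap. Its log2 fold change was 2.30 ± 0.298 (SE; edgeR FDR 3.35e-16). Col4a4 had 2.6, 2.82, 2.1 and 2.08 CPM in the untreated and 8.06, 6.33, 7.63 and 7.84 CPM in the TGFβ1 libraries, again with no overlap. Its log2 fold change was 1.63 ± 0.142 (SE; edgeR FDR 1.22e-31). The ratio of Col4a4 to Col4a3 per kb of exon had a mean of 6 ± 2.42 (SD, n = 4) in untreated and 3.16 ± 0.652 (SD, n = 4) in TGFβ1 libraries. These groups overlapped, and the exact permutation p was 0.0857 (0.1 adjusted), so a change in the balance of these chains was not resolved. Col4a3 had 42 counts in all untreated libraries. The gene C430014B12Rik overlaps 5.65% of the exon bases of Col4a3 on the other strand and had at most 9 counts in any library, against at least 38 counts of Col4a3 in each TGFβ1 library.

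Col4a3 and Col4a4 also lie head to head, on chromosome 1, at 82586921 to 82722059 on the plus strand and 82448423 to 82586849 on the minus strand. The 71 bases between these outermost bounds are given on the minus strand (chr1:82586850-82586920, GRCm38.p6) because they separate a pair of genes that both rose. The outermost starts of their protein-coding transcripts lie 126 bases apart. None of the 5 motifs searched in the members' promoters is in it, hence no capitals.
Col4a4: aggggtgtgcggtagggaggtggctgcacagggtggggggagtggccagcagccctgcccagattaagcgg

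Col4a5 and Col4a6, the X-linked chains of the α5α5α6 trimer, fell. Col4a5 was at 815, 800.5, 800.5 and 804 CPM in untreated libraries and at 644, 629, 635 and 617.5 CPM after TGFβ1, a log2 fold change of −0.35 ± 0.0354 (SE; edgeR FDR 2.07e-22). Col4a6 was at 243, 256, 236 and 226 CPM in untreated libraries and at 160.2, 155, 159 and 156 CPM after TGFβ1, a log2 fold change of −0.61 ± 0.0454 (SE; edgeR FDR 3.96e-40). For both genes every TGFβ1 library lay below every untreated one. Within libraries, Col4a6 fell relative to Col4a5, from a ratio per kb of 0.252 ± 0.0136 (SD, n = 4) to 0.21 ± 0.00215 (SD, n = 4), and Col4a5 fell relative to Col4a1, from 0.605 ± 0.0291 (SD, n = 4) to 0.394 ± 0.0256 (SD, n = 4). Both ratios were chosen after the data were seen, the groups did not overlap, and the exact permutation p was 0.0286 for each (0.04 adjusted). For Col4a5 to Col4a1 this outcome was fixed beforehand. Every TGFβ1 library was below every untreated one for Col4a5 and above for Col4a1, so the p of this ratio adds nothing to the values of both genes. The start sites of Col4a5 and Col4a6 face away from each other on the X chromosome with 1308 bases between them. The calls in the 3 type IV gene pairs were thus 1 chain higher and the other not called for Col4a1 and Col4a2, both higher for Col4a3 and Col4a4, and both lower for Col4a5 and Col4a6.

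**Figure D2:**
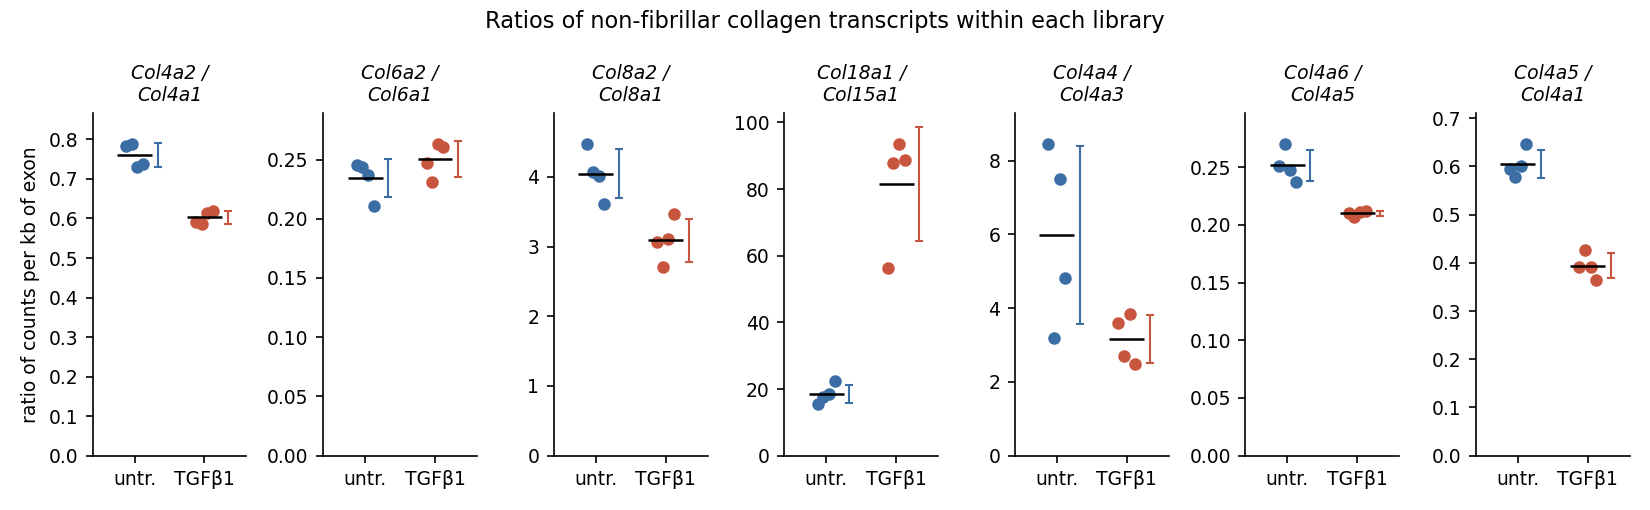
Ratios of counts per kb of exon between member genes in each library, untreated (untr.) and TGFβ1, with a black line at the mean and a bar for ± 1 SD beside the points; all axes start at 0. The groups are separate in 5 of the 7 ratios, with means of 0.76 and 0.602 for Col4a2 to Col4a1, and overlap for Col6a2 to Col6a1 and for Col4a4 to Col4a3. For Col4a5 to Col4a1 the separation was fixed by the separate groups of both genes.

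Type VI collagen showed the 2 lowest log2 fold changes among the members tested. Col6a1, the α1 chain of the beaded filament, was at 1137, 1123, 1024 and 938 CPM in the untreated libraries and at 448, 403, 428 and 436 CPM in the TGFβ1 libraries. Col6a2, the α2 chain, was at 529, 521, 460.5 and 376 CPM in the untreated libraries and at 210.5, 177, 214 and 216 CPM in the TGFβ1 libraries. Both genes were lower in every TGFβ1 library than in any untreated library, although untreated library 4 was the lowest of its group for both. The log2 fold change was −1.30 ± 0.0605 (SE; edgeR FDR 3.84e-98) for Col6a1. It was −1.21 ± 0.0945 (SE; edgeR FDR 1.29e-35) for Col6a2. The ratio of Col6a2 to Col6a1 per kb of exon was 0.234 ± 0.0158 (SD, n = 4) in untreated and 0.251 ± 0.0147 (SD, n = 4) in TGFβ1 libraries, with overlapping groups and an exact permutation p of 0.2, so a difference between the falls of both chains was not resolved. The ratio itself depends on the length used, and per kb of the longest transcripts its means were 0.372 in untreated and 0.398 in TGFβ1 libraries.

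The third chain of the classical trimer, Col6a3, was close to undetected, with 1 count in 1 untreated library and 1 count in 1 TGFβ1 library. The α4, α5 and α6 chains, which are homologous to α3, were also scarce. Col6a4 had 4, 0, 1 and 0 counts in the untreated and 5, 5, 4 and 10 counts in the TGFβ1 libraries, Col6a5 had none in untreated cells and 6 in all after TGFβ1, and Col6a6 had 1 count in each group. None of these 4 genes passed the filter on low counts. When the filter was left out, Col6a4 (edgeR FDR 0.00108) and Col6a5 (edgeR FDR 0.00949) were called higher, although each TGFβ1 library held at most 10 and 2 of their counts. Col6a5 and Col6a6 share 2.97% of the 75-base stretches of Col6a6, where the counting cannot part them.

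Col6a1 and Col6a2 lie in the same orientation on the minus strand of chromosome 10, at 76708792 to 76726168 and 76595762 to 76623630, with 85161 bases between them. The bases upstream of their outermost annotated starts are printed since these genes fell together, as chr10:76726169-76726294 and chr10:76623631-76623880 on the minus strand of GRCm38.p6. Capitals mark the reverse complement of GGGCGG, the core of a GC box, of which the 250 bases of Col6a2 hold 1 and the 126 bases of Col6a1 none. A further promoter entry of Col6a2, with its start at 76623404, holds 3 matches on either strand in the 250 bases before it. The entry of Col6a1, with its start at 76726044, holds none in its 250 bases.
Col6a1: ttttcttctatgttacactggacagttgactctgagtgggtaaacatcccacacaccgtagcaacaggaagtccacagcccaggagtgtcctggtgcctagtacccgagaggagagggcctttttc
Col6a2: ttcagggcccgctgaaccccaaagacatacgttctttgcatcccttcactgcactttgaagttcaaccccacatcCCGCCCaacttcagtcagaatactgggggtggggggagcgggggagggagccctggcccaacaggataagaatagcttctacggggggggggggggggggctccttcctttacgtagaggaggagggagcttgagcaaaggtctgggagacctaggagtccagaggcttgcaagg

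Types VIII and X split. Col8a1 and Col8a2 encode the chains of the network collagen of vessel walls and of the corneal Descemet's membrane. Col8a1 was at 182, 191, 170.3 and 172 CPM in untreated libraries and at 181, 187, 202 and 182 CPM after TGFβ1. These groups overlapped, and the log2 fold change was 0.07 ± 0.0513 (SE; edgeR FDR 0.189). Col8a2 was at 468, 445, 393 and 355 CPM in untreated libraries and at 319, 290.0, 360.4 and 362 CPM after TGFβ1, a log2 fold change of −0.32 ± 0.0866 (SE; edgeR FDR 0.000411). Col8a2 passed the test as lower although its groups overlapped, since 2 TGFβ1 libraries exceeded the lowest untreated library. The ratio of Col8a2 to Col8a1 per kb fell from 4.04 ± 0.353 (SD, n = 4) to 3.09 ± 0.311 (SD, n = 4) without overlap (exact permutation p = 0.0286, 0.04 adjusted). Per kb of the longest transcripts the means were 2.73 in untreated and 2.09 in TGFβ1 libraries.

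Col10a1, known from hypertrophic cartilage, had 5, 1, 1 and 2 counts in the untreated libraries and 25, 24, 24 and 45 counts in the TGFβ1 libraries. The ratio of the summed counts, scaled to library size, was 13.9 with a 95% counting interval from 7.06 to 31.1, and the log2 fold change was 3.71 ± 0.51 (SE; edgeR FDR 2.23e-23). This value was 4.44 without untreated library 1, which held 5 of the 9 untreated counts, and 2.94 at a prior count of 2. In CPM this was 0.106 ± 0.0945 (SD, n = 4) against 1.36 ± 0.27 (SD, n = 4), a low level in both groups. Of 5 chondrocyte markers, 3 were tested, with Acan (log2 fold change 7.15) and Comp (2.83) higher and Matn3 (−1.35) lower, while Sox9 and Matn1 lay under 1 CPM. Acan and Comp passed the filter on low counts through the TGFβ1 libraries alone and had to differ. The summed level of these markers was between 5.53 and 7.52 CPM in untreated and between 9.49 and 10.2 CPM in TGFβ1 libraries, and their part in the results for Col10a1 and the type IX chains was not tested.

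All 4 fibril-associated chains that were tested rose, and 5 of this group were too scarce to test. Col12a1, which binds type I fibrils, was at 199, 189.5, 158 and 163 CPM in untreated libraries and at 373, 377, 338 and 349 CPM after TGFβ1. Col16a1 was at 176, 176, 147 and 131 CPM in untreated libraries and at 315, 303, 362 and 349 CPM after TGFβ1. For both genes the lowest TGFβ1 library was above the highest untreated library. The log2 fold change was 1.02 ± 0.0696 (SE; edgeR FDR 1.96e-46) for Col12a1 and 1.08 ± 0.0879 (SE; edgeR FDR 4.90e-33) for Col16a1. Col20a1 was at 5.78, 6.76, 5.07 and 3.55 CPM in untreated libraries and at 19, 21.7, 18.5 and 17.6 CPM after TGFβ1, a log2 fold change of 1.85 ± 0.14 (SE; edgeR FDR 1.61e-38).

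Of the type IX chains, which coat the type II fibrils of cartilage, only Col9a3 was tested. It was at 1.45, 2.07, 1.44 and 1.22 CPM in untreated libraries and at 8.6, 8.13, 7.97 and 7.57 CPM after TGFβ1, a log2 fold change of 2.35 ± 0.152 (SE; edgeR FDR 2.33e-62). Groups did not overlap for Col9a3 or Col20a1. Col9a2 had 5, 0, 1 and 0 counts in the untreated and 8, 12, 9 and 16 counts in the TGFβ1 libraries, and the ratio of the summed counts was 7.93 with a 95% counting interval from 3.37 to 22.7. It was called higher when the filter on low counts was left out (edgeR FDR 3.06e-08). Col9a1, which supplies the remaining chain of the type IX trimer, had 1 count in all 8 libraries. Col14a1 had 4, 3, 1 and 2 counts in untreated and 10, 1, 1 and 2 counts in TGFβ1 libraries, Col22a1 had at most 3 counts in a library and Col19a1 had 1 count in all. The gene Tcfl5, which overlaps 6.07% of the exon bases of Col9a3 on the other strand, had 1 count in all libraries.

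Col18a1 had the lowest FDR of all members. It encodes the α1 chain of type XVIII collagen, whose C-terminal fragment is known as endostatin. Untreated libraries were at 29.1, 27.1, 25.9 and 26.2 CPM and TGFβ1 libraries at 111, 113, 107 and 103 CPM. The spread within each group was small beside the difference, with a log2 fold change of 2.00 ± 0.056 (SE; edgeR FDR 8.10e-279). Its relative Col15a1, the other basement membrane proteoglycan of this class, was at 1.69, 1.39, 1.27 and 1.06 CPM in untreated libraries and at 1.79, 1.17, 1.03 and 1.05 CPM after TGFβ1. Those groups overlapped, and the log2 fold change of −0.13 ± 0.219 (SE) did not pass the test (edgeR FDR 0.599).

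The ratio of Col18a1 to Col15a1 per kb was 15.6, 17.6, 18.5 and 22.3 in untreated and 56.3, 87.8, 93.5 and 88.8 in TGFβ1 libraries (exact permutation p = 0.0286, 0.04 adjusted). All TGFβ1 ratios were above all untreated ratios, and TGFβ1 library 1, which had the highest Col15a1 level, stood below the rest of its group. Col18a1 lies on the minus strand of chromosome 10 at 77052178 to 77166548. The 232 bases upstream of its outermost start (chr10:77166549-77166780, minus strand, GRCm38.p6) are shown because they hold 3 matches to GGGCGG on the reverse strand, in capitals. The promoter entry of its other start, at 77113705, holds none. Such matches are not particular to Col18a1: the entries of Col8a1 (not called) and Col8a2 (lower) hold 4 each, and 1 entry of Col6a2 (lower) holds 3.
Col18a1: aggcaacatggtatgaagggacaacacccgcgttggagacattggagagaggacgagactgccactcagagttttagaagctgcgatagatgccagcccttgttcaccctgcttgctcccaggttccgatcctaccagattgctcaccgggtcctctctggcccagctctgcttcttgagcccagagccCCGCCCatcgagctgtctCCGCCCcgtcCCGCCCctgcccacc

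The largest log2 fold change of the members was that of Col17a1, the transmembrane collagen of hemidesmosomes, the junctions that anchor epithelial cells to the basement membrane. It had 1, 0, 2 and 0 counts in the untreated libraries and 29, 32, 28 and 51 counts in the TGFβ1 libraries. Counts were thus 3 against 140 in all, and the ratio scaled to library size was 49.3 with a 95% counting interval from 16.5 to 242. The fitted log2 fold change was 5.40 ± 0.846 (SE; edgeR FDR 4.22e-36), and it depended on the prior count, being 3.79 at a prior count of 2, and on untreated library 3, being 6.32 without it. After TGFβ1 the level was 1.62 ± 0.255 CPM (SD, n = 4), so the transcript remained scarce. Col23a1 had 2, 3, 4 and 6 counts in untreated and 16, 13, 11 and 21 counts in TGFβ1 libraries, without overlap, and a log2 fold change of 2.07 ± 0.424 (SE; edgeR FDR 6.94e-08). Col13a1 had 1 count in all libraries. Col25a1 had none, which allows a level of up to 0.113 to 0.162 CPM in a library by counting error alone.

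Col17a1 lies on the minus strand of chromosome 19 at 47646344 to 47692094. Of the 31 promoter entries of members, 3 hold TATAAA in the 250 bases before the start (those of Col10a1, Col13a1 and Col17a1). Col17a1 holds it in 2 places, shown in capitals in the 198 bases upstream of its outermost start (chr19:47692095-47692292, minus strand, GRCm38.p6).
Col17a1: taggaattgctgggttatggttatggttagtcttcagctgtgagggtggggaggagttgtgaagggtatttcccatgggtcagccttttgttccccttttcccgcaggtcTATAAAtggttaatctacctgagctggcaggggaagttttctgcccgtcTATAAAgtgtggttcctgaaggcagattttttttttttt

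Col7a1, the collagen of the anchoring fibrils that tie epithelial basement membranes to the stroma, was at 0.337, 0.676, 0.349 and 0.406 CPM in untreated libraries and at 1.95, 2.09, 2.21 and 2.21 CPM after TGFβ1. The groups did not overlap, and the log2 fold change was 2.21 ± 0.254 (SE; edgeR FDR 1.98e-22). Of 6 epithelial markers, 3 were tested, with Krt8 and Krt18 higher, the latter tested through the TGFβ1 libraries alone, and Krt14 not called (38.8 CPM after TGFβ1), while Epcam, Krt5 and Cdh1 lay under 1 CPM in both groups. Their summed level was between 34.2 and 40.7 CPM in untreated libraries and between 38.2 and 45.2 CPM after TGFβ1, and their part in the results for Col7a1 and Col17a1 was not tested. Col24a1 was at 0.915, 0.864, 0.568 and 0.963 CPM in untreated libraries and at 0.595, 0.389, 0.492 and 0.621 CPM after TGFβ1, with overlapping groups. Its log2 fold change of −0.63 ± 0.283 (SE) passed narrowly as lower (edgeR FDR 0.0302). The call was lost with DESeq2 (FDR 0.114), at an FDR threshold of 0.01 and in 5 of the 8 fits that left out 1 library, with edgeR FDRs from 0.0604 to 0.0993. These were the fits without untreated library 1, 2 or 4 and without TGFβ1 library 2 or 3. Col26a1 and Col28a1 had at most 6 counts in any library and were not tested.

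**Figure D3:**
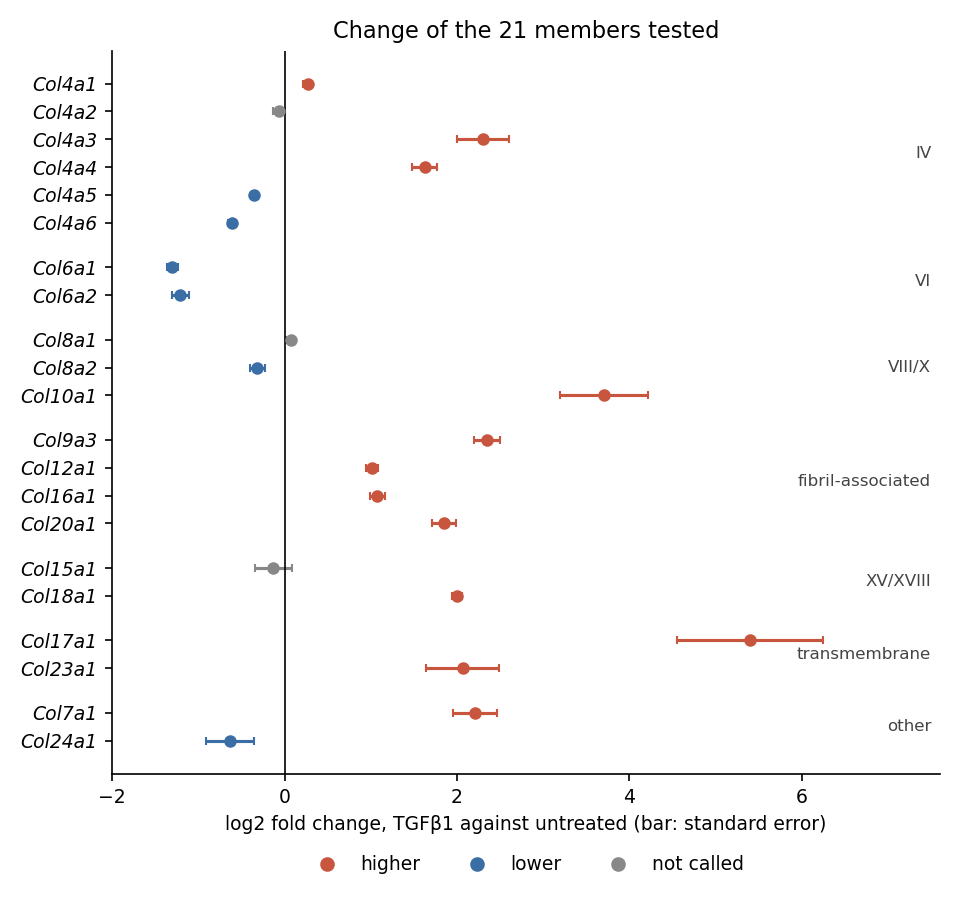
Log2 fold change of TGFβ1 against untreated libraries for the 21 members tested, with its standard error, grouped by type; red marks members called higher, blue lower and grey not called. Both type VI chains lie at −1.30 and −1.21, while all 4 fibril-associated chains lie above 1 and Col17a1 reaches 5.40 with the widest error.

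Levels of different chains were compared per length, as CPM per kb of the merged exons of each gene. In untreated cells the order was led by Col6a1 at 241, followed by Col4a1 at 198.5, Col4a2 at 151, Col4a5 at 119.8, Col8a2 at 92.4, Col6a2 at 56.7 and Col4a6 at 30.1 CPM per kb. No neighbouring chains in this part of the order overlapped over the 4 libraries, whereas Col16a1 (23.3) and Col8a1 (22.8), which came next, did. After TGFβ1 the order was Col4a1 at 239.5, Col4a2 at 144, Col6a1 at 97.9, Col4a5 at 94, Col8a2 at 74.2 and Col16a1 at 49.2 CPM per kb, with Col6a1 and Col4a5 overlapping. Col6a1 thus led in untreated cells and stood below Col4a1 and Col4a2 after TGFβ1. Col6a2, Col8a1 and Col12a1 followed at 24.6, 24 and 23.6 CPM per kb and could not be ordered. The merged exons of Col6a2 are long beside its longest transcript, and by the latter its levels were 96.1 CPM per kb before and 41.6 CPM per kb after TGFβ1, which places it level with Col8a2 in untreated cells. Averaged over all libraries, Col4a1 ranked 102 and Col6a1 163 among 13814 tested genes with a length.

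Summed over chains, type IV collagen was at 499.7 ± 23.3 CPM per kb in untreated and 498.5 ± 25.1 CPM per kb in TGFβ1 libraries (SD, n = 4). Type VI went from 298 ± 29.7 to 122.5 ± 6.34 CPM per kb. Fibril-associated chains went from 36.5 ± 4.86 to 78.8 ± 2.52 CPM per kb, and types XV and XVIII from 4.07 ± 0.242 to 15.7 ± 0.687 CPM per kb, nearly all of it Col18a1. The groups did not overlap for any of these 3 sums, while those of type IV did. Types VIII and X were at 115 ± 12.3 and 98.6 ± 8.36 CPM per kb, with overlapping groups. The non-fibrillar chains together made up 29.4% ± 0.491 (SD, n = 4) of the summed level of all 44 collagen genes in untreated cells and 25.1% ± 0.151 after TGFβ1. The direction was the same with other lengths, but its size was not: the change was −4.26 percentage points per kb of merged exons, −2.48 per kb of the longest transcript and −1.42 in CPM without division by length. These sums are descriptions and carry no test.

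**Figure D4:**
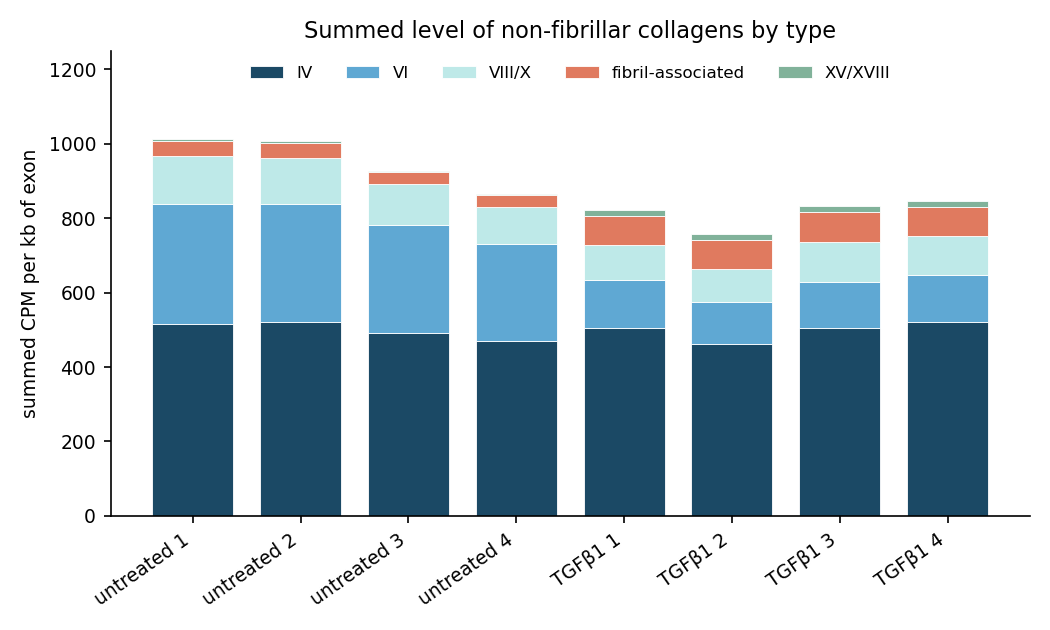
Summed level of the non-fibrillar collagens in each library, in CPM per kb of merged exons, stacked by type; transmembrane and other members, under 1 CPM per kb together, are not drawn. Type IV has about the same height in all 8 libraries, whereas the type VI segment is between 259.4 and 323.2 in untreated and between 113.3 and 127.6 in TGFβ1 libraries.

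Level and change of the members were also set side by side. Over the 21 tested members the Spearman correlation of mean CPM with log2 fold change was −0.57, and it was −0.06 over all 13818 genes tested. This is a description across genes, which share the same libraries and are not independent replicates, and 3 of the members passed the filter through TGFβ1 libraries alone. Col4a3 and Col7a1 reached the cutoff of the filter in 4 TGFβ1 libraries and 1 untreated library. Col10a1, Col17a1, Col23a1, Col4a3 and Col7a1 thus entered because of their TGFβ1 libraries, and the correlation without them was not computed. Col9a3, Col4a4 and Col20a1, which were also low and rose, reached the cutoff in all untreated libraries.

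**Figure D5:**
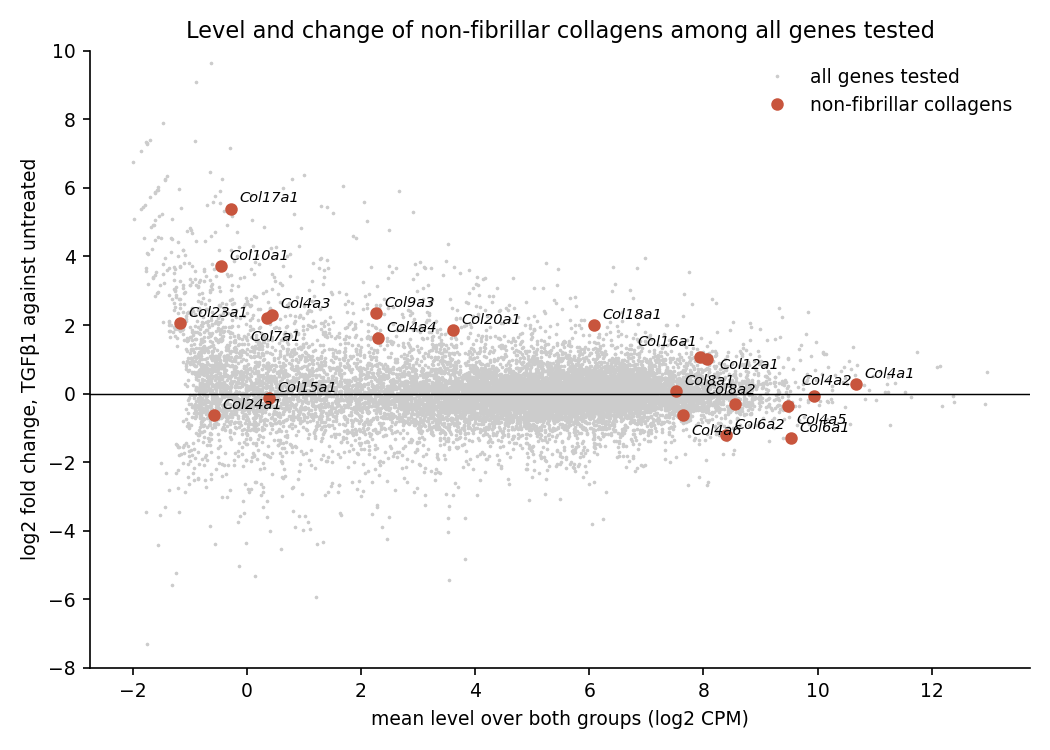
Mean level over both groups (log2 CPM) against log2 fold change for all 13818 genes tested (grey) and the 21 tested members (red, named). The 5 members with the largest rises, Col17a1 (5.40), Col10a1 (3.71), Col9a3 (2.35), Col4a3 (2.30) and Col7a1 (2.21), all have mean levels under 5 CPM, while Col6a1 and Col6a2 lie at the lower right. Of these 5, all but Col9a3 needed their TGFβ1 libraries to pass the filter on low counts.

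Promoters were examined for letters shared by the members. RefSeq entries for GRCm38.p6, from 250 bases before to 50 bases after a start, matched 28 of the 34 members with 31 entries. Only the 250 bases before the start were searched, in members and in all promoters. Col4a3, Col9a3, Col12a1, Col14a1, Col22a1 and Col26a1 had no entry. On either strand, GGGCGG was in 16 of the 31 entries (51.6%) and in 32.742% of all 32851 promoters. CAGACA, the letters of a Smad binding element, was in 6 entries (19.4%, beside 17.132% of all promoters), and GGCGCC, a GC-rich Smad motif, in 3 (9.7%, beside 9.586%). TGANTCA, the AP-1 letters, was in 1 entry, that of Col6a1 (3.2%, beside 6.749%), and TATAAA in 3 (9.7%, beside 12.368%). A match describes the letters only.

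Genes that act with these collagens were taken as lists, whose counts stand beside 37.6% higher and 38.0% lower among all genes tested. Of 27 basement membrane partners of type IV collagen (laminins, nidogens, perlecan and others), 24 were tested, 17 were higher and 5 lower, with a median log2 fold change of 0.79. The highest were Lamb3 (3.84 ± 0.317, SE) and Lama3 (3.58 ± 0.468, SE), chains of the laminin that joins hemidesmosomes, which came from 0.252 and 0.112 CPM and reached 3.91 and 1.52 CPM. Both of these and Lamc3 passed the filter on low counts through the TGFβ1 libraries alone and had to differ, and among the other 21 genes 14 were higher and 5 lower. The median of 0.79 includes Lama3, Lamb3 and Lamc3. The lowest were Nid2 (−1.09 ± 0.0582, SE), a nidogen that links the laminin and type IV networks, and Npnt (−0.80 ± 0.0534, SE), a ligand of integrin α8β1. Nid2 went from 211 to 99 CPM.

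Of 7 cross-linking enzymes, 4 were higher and 1 lower, with Loxl3 (1.71) and Loxl4 (1.38) the highest log2 fold changes and the transglutaminase Tgm2 (−0.95) the only lower one. Of 26 tested genes of chain modification, folding and export, 17 were higher and 7 lower. The highest of these were Fkbp14 (1.44), a prolyl isomerase of the endoplasmic reticulum, and Plod2 (1.07), a lysyl hydroxylase, and the lowest were Klhl12 (−0.49), an adaptor in the export of procollagen, and the prolyl hydroxylase chain P4ha2 (−0.27). The median log2 fold change was 0.27 in both lists, beside −0.01 over all genes tested.

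Of 15 collagen receptors, 12 were tested, 8 were higher and 3 lower. Itga2, the α2 integrin chain, went from 0.157 to 5.34 CPM (log2 fold change 5.05 ± 0.409, SE), but it passed the filter through the TGFβ1 libraries alone and had to differ. Among the other 11 receptors tested 7 were higher and 3 lower, with Itga11 the highest (2.29 ± 0.121, SE). Itga1, the α1 integrin chain that binds type IV collagen, fell from 33.8 to 14.9 CPM (−1.18 ± 0.0906, SE), and the discoidin receptor Ddr2 fell as well (−0.64 ± 0.056, SE). A list of 19 proteases was drawn up for the degradation of types IV and VI, but it also holds Bmp1, Furin, Adam10 and Adam17, whose main roles lie elsewhere. Of these 19 proteases, 15 were tested, 11 were higher and 3 lower. Mmp9, a gelatinase that cleaves type IV collagen, rose from 0.42 to 16.9 CPM (5.28 ± 0.259, SE) and the membrane-type enzyme Mmp15 from 12.6 to 154 CPM (3.62 ± 0.0751, SE). The cathepsin Ctsl (−0.74 ± 0.0438, SE) and the sheddase Adam17 (−0.21 ± 0.0415, SE) were the lowest. Each gene named from these lists passed edgeR's likelihood ratio test at an FDR under 0.05, as did 75.6% of all genes tested in either direction.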

How the data were processed

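Libraries were prepared with a stranded poly(A) kit and sequenced with single-end reads. The deposited values are whole-number counts of reads, which the authors assigned to 55471 genes and did not normalize. Per the submitters' processing notes, bcl2fastq 2.20.0.422, STAR 2.7.3a, featureCounts 1.5.1 and the builds GRCm38 and mm10 were used; the annotation release and the settings for strand and multiply mapped reads are not given in the sources used here.

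The 8 columns were assigned to groups by their labels. edgeR 4.0.16 was run in R 4.3.3. Its filterByExpr function removed genes without about 10 counts in at least 4 libraries, TMM factors scaled the libraries, and glmFit and glmLRT compared the groups. P-values were adjusted by Benjamini-Hochberg across the 13818 genes that remained, at an FDR threshold of 0.05. CPM were computed from TMM library sizes. Lengths and positions came from GENCODE M21 for 55230 genes, including all members. No 2 libraries of a group were alike within counting error: chi-square per degree of freedom was between 2.37 and 7.84 in the 12 pairs. On simulated data with 200 of 13818 genes changed, the likelihood ratio test recovered 187 and called 34 others (15.4% of its calls), and the quasi-likelihood test recovered 185 and called 17 others (8.42%). In the real data 75.6% of genes tested were called, far more than were changed in the simulation. These percentages are thus not error rates of the calls reported here.

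Every member was open to naming, and of each list of other genes the 2 highest and 2 lowest log2 fold changes among genes called. Members, lists and marker genes were chosen with earlier results of these data known. Fbln1 is in the lists of fibroblast markers and basement membrane partners, and Cspg4 in those of mural markers and receptors. Chain ratios were compared with an exact two-sided permutation test over libraries. Alternatives were the quasi-likelihood test, DESeq2 1.42.0, its size factors, total counts, no filter, a filter of 1 CPM, an FDR of 0.01, a prior count of 2, a replicate block, other lengths, a pseudocount of 0.5 in ratios, Col24a1 moved to the fibrillar chains, and each library left out. Longest transcript lengths for the share and 3 of the ratios were chosen after seeing the data. Protein sequences were not analysed here. One further gene looked up with the hemidesmosome genes is not reported here.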

Additional observations from a re-analysis of the deposited data

Results flagged for a closer look

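In 56 groups of 4 libraries (the CPM of each tested member and the 7 chain ratios, in untreated and in TGFβ1 libraries), the distance of the farthest library from its neighbour was compared with the range of the group. It exceeded Dixon's critical value of 0.829 in 2 groups, while about 1 group in 20 is expected by chance. Col6a2 was at 177 CPM in TGFβ1 library 2, where the other TGFβ1 libraries were between 210.5 and 216 CPM (Q = 0.859). The value lay further from the untreated libraries than those of the other TGFβ1 libraries. The ratio of Col18a1 to Col15a1 per kb was 56.3 in TGFβ1 library 1, where the other TGFβ1 libraries were between 87.8 and 93.5 (Q = 0.845). This rested on 33 counts of Col15a1 in that library, against 21 to 27 in the others.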

How the results depend on the processing

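Over all alternatives 348 of 355 single-gene comparisons kept their call and direction, none reversed, and the 7 that lost the call were all Col24a1 (in DESeq2, at an FDR under 0.01 and in 5 fits without 1 library). The count of higher members was 12 in every alternative except 15 without the filter on low counts and 11 with a filter of at least 1 CPM in at least 4 libraries. The count of lower members was 5 or 6, with 5 in DESeq2, at an FDR under 0.01 and with the 1 CPM filter. Leaving out 1 library at a time gave 12 higher and 5 to 6 lower members. The fall of the non-fibrillar share of the summed collagen level changed in size with the length used, from −4.26 percentage points to −2.48 by longest transcript and −1.42 without division by length, and was between −4.42 and −4.04 without 1 library.

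The replicate numbers did not pair the libraries, since the deviations of same-numbered libraries had correlations of −0.103, −0.059, −0.034 and −0.193. With the replicate block 12 members were higher and 6 lower, and over all genes 5075 were higher and 5077 lower, against 5198 and 5251 without it. For the chain ratios, a paired exact test with 4 pairs cannot pass a threshold of 0.05, and leaving out a library left the direction of each ratio as it was. The ratio of Col6a3 to Col6a1 could not be computed because Col6a3 did not pass the filter on low counts. Depth limits the 13 untested members, and counting intervals cover counting error only.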

Other observations

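Other genes of hemidesmosomes were looked up after the values of Col17a1, Col7a1, Lama3 and Lamb3 had been seen, so that they are no independent evidence of a direction. Itgb4, the β4 integrin chain of these junctions, was at 41.9 ± 2.69 CPM in untreated and 219.6 ± 9.96 CPM in TGFβ1 libraries (SD, n = 4), a log2 fold change of 2.39 ± 0.0541 (SE). Its partner Itga6 was at 28.8 ± 1.73 and 63.9 ± 5.19 CPM (1.15 ± 0.0688, SE). The plakins Plec and Dst, which link the junction to the cytoskeleton, were at 68.2 and 198 CPM and at 206 and 403 CPM. Cd151, a tetraspanin that binds the α6β4 integrin, fell from 192 ± 4.39 to 125.5 ± 4.19 CPM (−0.62 ± 0.0416, SE). These 5 genes passed edgeR's likelihood ratio test at an FDR under 0.05, with 4 higher and 1 lower and no overlap of the groups, beside 37.6% higher, 38.0% lower and 69.8% without overlap among all genes tested.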
